A study of Mus musculus with 4 samples.

Results

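Long noncoding RNAs of the middle ear were examined in extracts of diesel exhaust particle (DEP)-exposed and control mice. The set comprised 9 genes, namely Meg3, Rian and Mirg of the Dlk1-Dio3 imprinted domain, Miat and Snhg11 as further transcripts of nervous tissue, H19 of fetal tissue and muscle, and Neat1, Malat1 and Gas5 as transcripts found in most tissues. Its members were the array probes whose RefSeq accession was paired with one of these symbols. Of the 9 genes, 3 had such a probe among the 39429 probes of the array, namely Mirg, Neat1 and Malat1, with 1 probe each and 1 spot per array. Meg3, Rian, Miat, Snhg11, H19 and Gas5 were not analysed here, because none of the 27655 probes that could be named carried their symbols. Probes for them may be among those that could not be named. Among named probes, the nervous-tissue transcripts were represented by 1 of 5 genes and the widespread ones by 2 of 3.

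Expression was measured on 4 two-colour microarrays of 1 slide and 1 scan. The study used 9 male BALB/c mice of 6 to 10 weeks. By its methods the animals breathed DEPs on 5 days for 1 h a day, they were killed on day 14, and the temporal bone area with the middle ear was taken. By the source names in the labels, every array carried the ear of an exposed mouse in red (Cy5), called the DEP channel here, and a control ear in green (Cy3), called the control channel. These names were followed although the treatment entries of the labels differ from them, with both treatments entered for red and none for green. Read this way, the direction opposes that of the study for most genes to which its text or tables give one. Of 36 such genes tested, 33 had a mean ratio of the opposite sign, among them 11 of the 13 that were well above background in both dyes on all arrays. The sign of every ratio below therefore rests on the source names, and each would turn if these named the channels the wrong way round. The dyes were never swapped, so dye bias and exposure cannot be told apart. Neither the labels nor the methods say how the controls were handled, how many mice stood behind an extract, or whether the extracts of 1 array were matched. The labels call the arrays biological replicates, and the p-values measure the spread between these 4 arrays.

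Long noncoding RNAs are transcripts without a long open reading frame that act as RNA or through the process of their transcription. Meg3, Rian and Mirg lie in tandem on the same strand of the Dlk1-Dio3 domain, are expressed from the maternal chromosome, and carry a large cluster of microRNAs and small nucleolar RNAs, while the protein-coding genes Dlk1, Rtl1 and Dio3 of the domain are expressed from the paternal one. In adult mice the noncoding transcripts of the domain are most abundant in the brain. Neat1 is the RNA scaffold of nuclear paraspeckles, and Malat1 is a highly abundant RNA of nuclear speckles, where splicing factors gather; both are made by nearly all cell types. In extracts of a whole tissue, fewer cells of a type and less RNA per cell cannot be told apart.

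Mirg, "microRNA containing gene", hosts the distal microRNAs of the domain. In the RefSeq tables of build GRCm38.p6, 10 microRNA hairpins lie within its span on chromosome 12, and they give 19 mature microRNAs, all on the plus strand. None lies within Neat1 or Malat1. The sequences below show what the Mirg transcript carries. They were not themselves measured by the probe. Each is printed 5′ to 3′ with the seed, bases 2 to 8, in capitals. The 19 mature sequences have 18 different seeds, and only the following pair shares one, at chr12:109735669-109735692 and chr12:109739132-109739152.
mmu-miR-453: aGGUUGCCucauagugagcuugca
mmu-miR-496a-5p: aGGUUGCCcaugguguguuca

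The next 6 stand for the rest of the cluster. In order along the plus strand they lie at chr12:109738438-109738459, chr12:109740553-109740574, chr12:109742422-109742446, chr12:109743204-109743225, chr12:109743466-109743486 and chr12:109743764-109743784.
mmu-miR-154-5p: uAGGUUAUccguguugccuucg
mmu-miR-377-3p: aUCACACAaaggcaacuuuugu
mmu-miR-541-5p: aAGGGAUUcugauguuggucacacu
mmu-miR-409-3p: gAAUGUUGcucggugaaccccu
mmu-miR-369-3p: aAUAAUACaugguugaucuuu
mmu-miR-410-3p: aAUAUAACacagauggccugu

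Mirg was lower in the DEP channel on 3 of 4 arrays, and Neat1 and Malat1 were each lower on 2 of 4. For none of the 3 RNAs was the mean difference larger than the spread between arrays. The probes of Mirg (A_66_P121059), Neat1 (A_51_P234692) and Malat1 (A_55_P2021187) were well above background, by the image software's own flag, in all 4 arrays and both dyes (well measured, below), and none of their spots was saturated. The signals given here are processed intensities in arbitrary units, after background subtraction and dye normalization within each array. In the DEP channel, Mirg had signals of 419, 258, 337 and 279 on arrays 1 to 4. In the control channel it had 962, 516, 590 and 162. The control signal was the higher one on arrays 1, 2 and 3 and the lower one on array 4, so that the channels overlapped.

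The spread of Mirg lay mainly in the control channel. There the highest signal was 5.93 times the lowest, against 1.63 times in the DEP channel. After quantile normalization between arrays, which removes differences in brightness between whole arrays, these ratios were 3.78 and 1.54. The SD of its normalized log2 signal was 0.90 in the control channel, larger than that of 95.5% of the 14281 well-measured genes, whose median SD was 0.22 there. In the DEP channel the SD of Mirg was 0.26, larger than that of 63.9% of these genes.

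Neat1 gave signals of 19639, 10320, 12597 and 9935 in the DEP channel. In the control channel they were 14901, 8678, 19471 and 13784. The DEP channel was the brighter one on arrays 1 and 2 and the dimmer one on arrays 3 and 4. Malat1 gave 1065, 552, 692 and 583 in the DEP channel, against 492, 573, 852 and 465 in the control channel. Here the DEP channel was brighter on arrays 1 and 4 and dimmer on arrays 2 and 3. Both transcripts also varied more in the control channel after the quantile normalization, which gives the average of both channels the same distribution on every array. The median SD of all well-measured genes was then also larger in the control channel, at 0.22 against 0.19 in the DEP channel. The highest normalized control signal was 2.62 times the lowest for Neat1, against 1.43 times in the DEP channel, and for Malat1 the ratios were 2.72 and 1.47. Signals of different probes are not comparable with each other, so the 3 RNAs cannot be ranked by abundance.

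**Figure D1:**
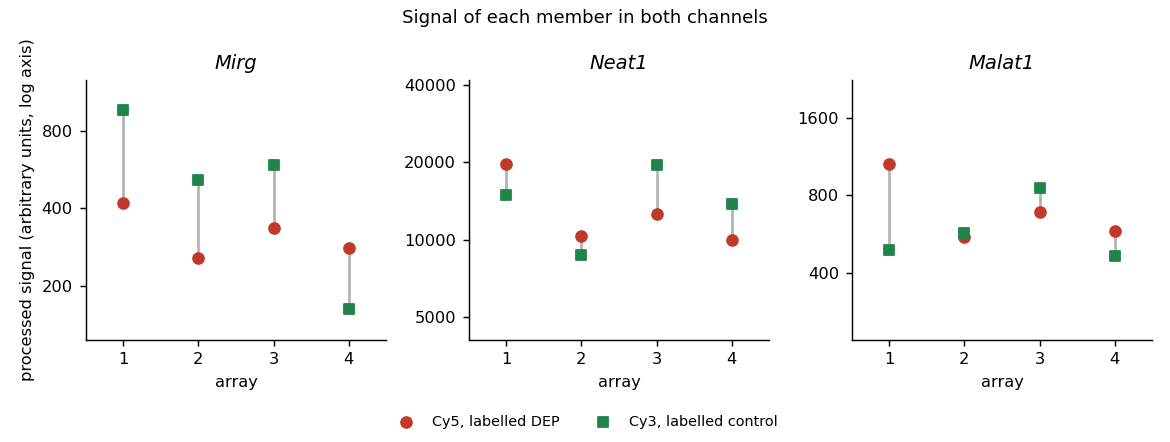
Processed signal of Mirg, Neat1 and Malat1 (vertical, arbitrary units, log axis) on arrays 1 to 4 (horizontal), with circles for the DEP channel (Cy5), squares for the control channel (Cy3) and grey lines joining both channels of an array. The control signal of Mirg lay between 162 and 962, while its signal in the DEP channel stayed between 258 and 419.

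Ratios are given as log2 of DEP over control channel, so that negative values mean a lower signal in the DEP channel. Mirg had log2 ratios of -1.20, -1.002, -0.81 and 0.78 on arrays 1 to 4. It was 2.29-, 2.00- and 1.75-fold lower in the DEP channel on arrays 1 to 3 and 1.72-fold higher on array 4. The 4 ratios averaged -0.56 ± 0.91 (SD, n = 4 arrays; standard error 0.37), with a 95% confidence interval from -1.50 to 0.38. In limma's moderated test, two-sided, Mirg had an unadjusted p = 0.189 and an adjusted p = 0.450, so the difference was within the spread between arrays.

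Array 4 had the largest part in this spread. Without it the mean log2 ratio of Mirg was -1.003 ± 0.19 (SD, n = 3 arrays), with an unadjusted p = 0.0025 and an adjusted p = 0.168 in limma's test. An unadjusted p under 0.05 without array 4 was reached by 14.4% of the 14281 well-measured genes, and a mean past 2-fold lower on arrays 1 to 3 by 4.54% of them. On arrays 1, 2 and 3, only 6.30%, 4.64% and 4.57% of these genes had a lower ratio than Mirg. On array 4, 97.7% of them did. The order of signs seen for Mirg, lower on arrays 1 to 3 and higher on array 4, was present in 10.1% of all genes with 4 ratios and in 10.6% of the well-measured ones.

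Neat1 had log2 ratios of 0.40, 0.25, -0.63 and -0.47 on arrays 1 to 4. Its mean was -0.11 ± 0.51 (SD, n = 4 arrays; standard error 0.22), with a 95% confidence interval from -0.68 to 0.46 and an adjusted p = 0.80 in limma's test. Malat1 had 1.11, -0.05, -0.30 and 0.32. Its mean was 0.27 ± 0.62 (SD, n = 4 arrays; standard error 0.26), with an interval from -0.39 to 0.94 and an adjusted p = 0.593. Both RNAs were lower in the DEP channel on 2 arrays and higher on 2, and neither difference was larger than the spread between arrays. The intervals allow changes of up to 1.37-fold higher for Neat1 and 1.91-fold higher for Malat1, and of 0.62-fold and 0.76-fold in the other direction. Without array 1 the mean of Malat1 was -0.01, and without array 3 that of Neat1 was 0.06, so the sign of each mean depended on 1 array. The mean of Neat1 was also above 0 without array 4, at 0.01.

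By mean ratio, 2 of the 3 members were lower and 1 was higher in the DEP channel. Over all 17962 named genes tested, 44.7% were lower and 55.3% higher. None of the 3 was past 2-fold, against 4.06% of all genes past it in the lower direction and 2.15% in the higher one. None kept the same sign on the 4 arrays, which 10.6% of all genes did as lower and 16.8% as higher. None had an unadjusted p under 0.05 in limma's test, against 7.5% of all genes lower and 9.19% higher. An adjusted p under 0.05 was reached by 0 members and by 0% of all genes, where 2998 genes had an unadjusted p under 0.05 and ordinary least squares likewise called 0 after adjustment.

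Setting the nervous-tissue transcript against the widespread ones, the log2 ratio of Mirg minus the median of Neat1 and Malat1 was -1.95, -1.10, -0.34 and 0.86 on arrays 1 to 4. The mean of this difference was -0.63 ± 1.19 (SD, n = 4 arrays), below 0 on 3 of 4 arrays. The arrays differed in its size, and array 4 had the opposite sign, so the mean was smaller than the spread between arrays. Mirg against Neat1 alone gave -1.60, -1.25, -0.18 and 1.26, and Mirg against Malat1 alone gave -2.31, -0.95, -0.51 and 0.46. Malat1 lay above Neat1 on 3 of 4 arrays. As each side of this comparison rests on 1 or 2 probes, it describes those probes and not the classes of RNA.

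Markers of neurons moved with the ratio of Mirg. All 14 genes of a neuron list, which holds structural and synaptic genes such as Snap25 and Nefl, were well measured, and all 14 had a lower mean ratio. Their median log2 ratio was -2.41, -1.45, -1.06 and 0.27 on arrays 1 to 4, with 9 of the 14 genes lower on arrays 1 to 3 and higher on array 4. The summed signal of the list ranged from 26099 to 86863 in the control channel, where array 4 was lowest and array 1 highest, and from 20374 to 35271 in the DEP channel. After quantile normalization between arrays these sums went from 30317 to 78419 and from 15086 to 41010, so that, unlike Mirg, the list varied in the DEP channel about as much as in the control channel. Mirg lay above the median of the neuron list on all 4 arrays, by 1.21, 0.45, 0.25 and 0.51 on the log2 scale. The part of nervous tissue in the ratio of Mirg was not tested.

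Other nervous markers were also present in these ear extracts. For 12 cerebellum genes, among them Itpr1 and Zic1, the summed signal in the control channel was 121072, 89275, 8775 and 4653 on arrays 1 to 4, against 15318, 8799, 7028 and 5114 in the DEP channel. Calb1, Cbln3 and Car8 of that list were not well above background in the DEP channel on any array. For 9 astrocyte genes the sums ranged from 49846 to 254578 in the control channel and from 54848 to 66829 in the DEP channel, and all 9 genes had a lower mean ratio. The myelin list had 6 of 7 tested genes lower. Genes of Schwann cells, the glia of peripheral nerves, had ratios in both directions, with 4 of 7 lower and 3 higher. Their medians were -0.46, 0.25, 0.14 and 0.34 on arrays 1 to 4, and 1 of the 7 had the order of signs of Mirg. The labelled tissue was itself well represented, as all 12 genes of middle ear and airway epithelium, among them Bpifa1 and Bpifb1, were well measured, with a median ratio of -0.02. Skeletal muscle markers, by contrast, had medians of -0.63, -0.26, 0.81 and 0.83 on arrays 1 to 4, an order of signs that no member shared.

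**Figure D2:**
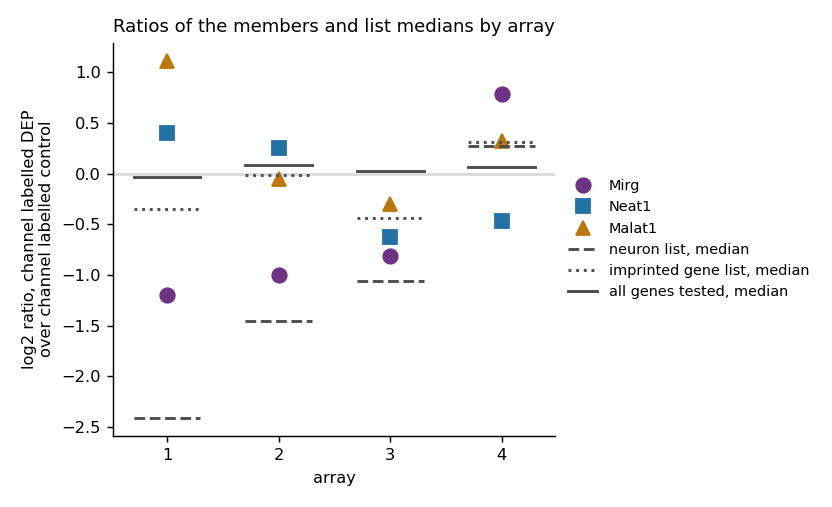
Log2 ratio of DEP over control channel (vertical) on arrays 1 to 4 (horizontal) for Mirg, Neat1 and Malat1 (symbols), with short lines for the medians of the 14 neuron genes, the 19 imprinted genes tested and all 17962 genes tested. Mirg and the neuron median were below 0 on arrays 1 to 3 and above 0 on array 4, and the median of all genes stayed between -0.03 and 0.08.

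The genes whose ratios were most like those of each member were found by the root mean square difference of the 4 log2 ratios over 14278 other well-measured genes. The genes nearest to Mirg were Galnt14, at a difference of 0.18, Lrrn3 at 0.20, Gpr176 at 0.21, Kcnc4 at 0.22 and Map6 at 0.24. Kcnc4 encodes a voltage-gated potassium channel, Map6 a protein that stabilises microtubules in neurons, and Lrrn3 a neuronal leucine-rich repeat protein. Neat1 was 1.20 and Malat1 1.30 from Mirg, and 10951 and 12064 genes, respectively, were nearer. The genes nearest to Neat1 were Tox4, at 0.05, and Ccny, Gm19668, 1700022I11Rik and Olfr1109, at 0.07 to 0.08. Those nearest to Malat1 were Stra6, the receptor for retinol-binding protein, at 0.12, the chemokine-scavenging receptor Ackr2 at 0.16, Arl4d at 0.17, Calr3 at 0.19 and 1810062G17Rik at 0.22. Neat1 and Malat1 were 0.58 apart. With 4 values per gene these likenesses are descriptions only, and the genes share the extracts.

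The Dlk1-Dio3 domain was sparsely covered. Between Begain and Dio3 the RefSeq table holds 106 genes, of which 61 are microRNA genes, and 8 had a probe. Dlk1, the paternally expressed Notch ligand-like protein that restrains adipocyte differentiation, had signals of 1933, 1027, 724 and 812 in the DEP channel. In the control channel it had 797, 414, 2116 and 406. Array 3 differed from the other arrays, with a log2 ratio of -1.55 against 1.28, 1.31 and 1.00, and a second probe gave 1.04, 0.98, -1.63 and 0.70. The mean of Dlk1 was 0.51 ± 1.38 (SD, n = 4 arrays; adjusted p = 0.629). Dlk1 and Mirg thus had opposite signs on arrays 1 and 2 and the same sign on arrays 3 and 4.

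Begain, which encodes a brain-enriched protein that binds guanylate kinases, had the same order of signs as Mirg. Its ratios were -0.66, -0.57, -0.92 and 0.12, with signals of 821, 414, 606 and 215 in the control channel and of 520, 279, 319 and 233 in the DEP channel. Its mean was -0.51 ± 0.44 (SD, n = 4 arrays), with an unadjusted p = 0.050 and an adjusted p = 0.269. Dio3os, the antisense transcript of the deiodinase gene Dio3, was the higher in DEP on 4 of 4 arrays, at 0.68, 0.37, 0.15 and 0.68, with an adjusted p = 0.205. Its control signal was well above background on 3 arrays only. No fold is given for Dio3, which was well above background on 2 arrays in the DEP channel and on none in the control channel. Rtl1, a retrotransposon-derived gene of placenta and muscle, and 3110009F21Rik were not well above background on any array, and 6430411K18Rik was so on 1 array in each channel.

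Coding genes that flank the domain were examined for comparison. Slc25a47, Wars and Wdr25 on one side had means of 0.19, -0.19 and -0.14, and Ppp2r5c and 1700001K19Rik on the other had 0.12 and 0.15. Dync1h1, the heavy chain of cytoplasmic dynein, was lower on 4 of 4 arrays with a mean of -0.58 ± 0.28 (SD, n = 4 arrays; adjusted p = 0.170). By the brightest probe of each of these 6 neighbours, Wdr25 had the order of signs of Mirg, at -0.13, -0.21, -0.32 and 0.10. A dimmer probe of Ppp2r5c had it too, at -0.08, -0.03, -0.27 and 0.15. A further probe of Ppp2r5c did not, at 0.41, -0.14, -0.12 and 0.03. Nor did the dimmer probe of Wars, at 0.29, -0.21, 0.44 and -0.02, whose mean of 0.13 had the opposite sign to that of the brighter one.

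**Figure D3:**
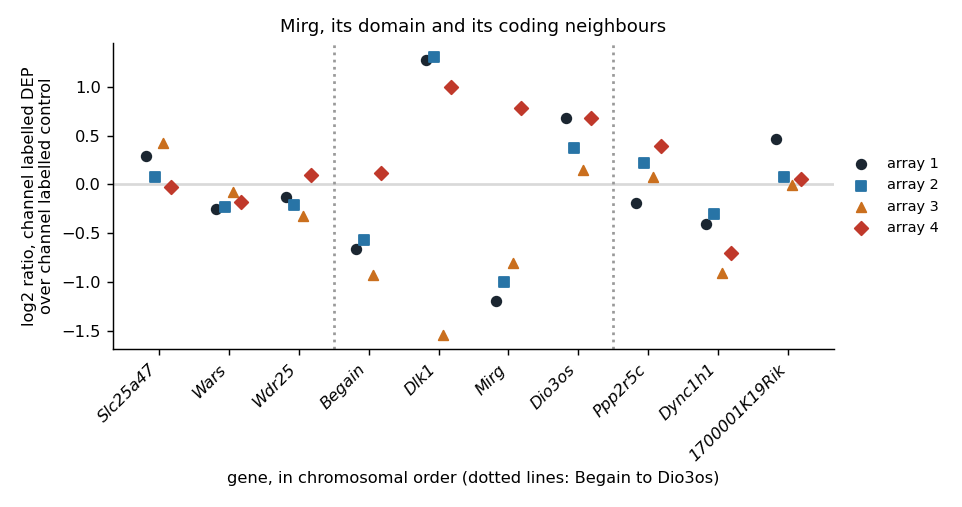
Log2 ratio of DEP over control channel (vertical) on each array (symbols) for genes in chromosomal order (horizontal), with dotted lines around the genes of the Dlk1-Dio3 domain that were measured well enough to plot. Begain and Mirg were lower on arrays 1 to 3 and higher on array 4, whereas Dlk1 was lower on array 3 alone, at -1.55.

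Imprinted genes outside the domain were examined next, since many are expressed in neural and mesenchymal tissue. Of 20 listed genes 19 were tested; 10 had a lower and 9 a higher mean ratio, and the median was -0.11, against 0.04 over all genes. The medians on arrays 1 to 4 were -0.35, -0.01, -0.44 and 0.31. The median of the list was -0.0098 without array 1 and -0.33 without array 4. Over the 15 well-measured genes of the list it was -0.23, with 9 lower and 6 higher. Of the 18 with 4 ratios, 8 had the order of signs of Mirg, or 44.4% beside the 10.1% of all genes. The share was 64.3% in the neuron list, 44.4% in the cerebellum and in the astrocyte list, and 42.9% in the myelin list. In the Schwann cell list it was 14.3%. No gene had an adjusted p under 0.05 in limma's test and 1, Ndn, had an unadjusted p under 0.05.

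Ndn encodes necdin, a growth suppressor of postmitotic neurons. Its signals were 2026, 1525, 1126 and 491 in the control channel, against 653, 574, 633 and 549 in the DEP channel. Its 4 log2 ratios averaged -0.93 ± 0.80 (SD, n = 4 arrays), with an unadjusted p = 0.036 and an adjusted p = 0.244. Snrpn, a core spliceosomal protein of brain, gave -2.74, -1.86, -0.79 and 0.24, with a mean of -1.29 ± 1.29 and an adjusted p = 0.276. As for Mirg, the spread of both genes lay in the control channel, where Snrpn went from 7087 on array 1 to 1254 on array 4, while it stayed between 1062 and 1481 in the DEP channel. Impact, a translational regulator abundant in neurons, and Gnas, which encodes a stimulatory G protein subunit, had means of -0.56 and -0.43 with the same order of signs.

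Among 44 other long noncoding RNAs listed, 24 had a probe and 18 were tested, of which 11 were lower and 7 higher with a median of -0.09. Over the 14 that were well measured, 11 were lower and 3 higher, and the median was -0.22. At an unadjusted p under 0.05, 2 of the 18 were lower (11.1%, against 7.5% of all genes) and 1 was higher (5.56%, against 9.19%). The higher one was Dio3os of the Dlk1-Dio3 domain, with an unadjusted p = 0.020 in limma's test. After adjustment in the same test 0 passed. Norad, which sequesters Pumilio proteins and so guards genome stability, was lower on 4 of 4 arrays. Its ratios were -0.86, -0.78, -0.59 and -0.37, with a mean of -0.65 ± 0.22 (SD, n = 4 arrays), an unadjusted p = 0.0041 and an adjusted p = 0.138. All 4 probes of Norad were lower on all 4 arrays, with means between -0.65 and -0.14. Dleu2, the host of the miR-15a and miR-16-1 cluster, was also lower on 4 of 4 arrays, at a mean of -0.42 (adjusted p = 0.238). Mir17hg, the host of the miR-17 to miR-92a cluster, was higher on 3 arrays with a mean of 0.56 (limma's test, unadjusted p = 0.052, adjusted p = 0.273).

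Tug1, a widely expressed RNA, had a mean of 0.23 for its brightest probe, higher on 4 of 4 arrays (adjusted p = 0.324). Its 3 probes disagreed, since another had a mean of 0.17 and a further one -0.28, at 0.34, 0.38, -1.09 and -0.74. The last of these had the order of signs of Neat1. So did 2 RNAs that were singled out after their values were seen: Rmrp, the RNA of a mitochondrial and nucleolar ribonuclease, at 0.59, 0.25, -0.68 and -0.97, and Terc, the RNA of telomerase, at 0.35, 0.31, -0.48 and -0.14. Peg13, an imprinted noncoding RNA of brain that was singled out in the same way, was the 1 gene of this list with the order of signs of Mirg, at -1.43, -0.75, -0.17 and 0.53. Its signal stayed between 4991 and 5627 in the DEP channel and went from 13414 to 3793 in the control channel. Among the genes of this list with 4 ratios, the order of Mirg was present in 5.88%, below the 10.1% of all genes. The share of all genes with the order of Neat1 was not counted, so these matches are descriptions only. Both probes of Xist, the RNA of X inactivation, were not well above background on any array, and the mice were male.

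Gas5, for which no probe was matched, is a host gene of small nucleolar RNAs. A list of other such host genes and of further noncoding genes with short exons was examined. Of 19 listed, 12 were tested, all of them well measured. Of these, 6 were lower and 6 higher, and the median ratio was -0.0024. Dancr, an RNA that represses differentiation of progenitor cells, was higher on 4 of 4 arrays. Its ratios were 0.74, 0.59, 0.44 and 0.36, with a mean of 0.53 ± 0.17 (SD, n = 4 arrays), an unadjusted p = 0.0062 and an adjusted p = 0.153. Snhg1, Snhg3 and Snhg15 were likewise higher on 4 of 4 arrays, with means of 0.28, 0.26 and 0.25 and adjusted p of 0.306, 0.290 and 0.306. The spread of these genes was narrower than that of the members, with an SD below 0.36 for each of the 12, while Mirg, Neat1 and Malat1 had SDs of 0.91, 0.51 and 0.62.

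**Figure D4:**
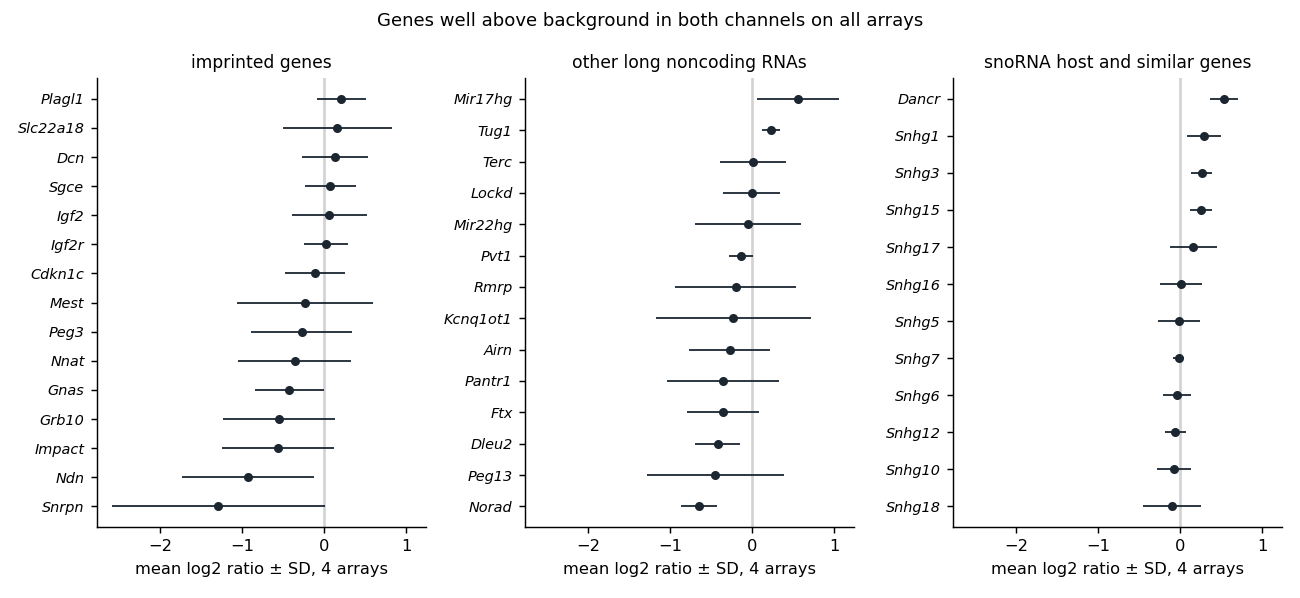
Mean log2 ratio of DEP over control channel (horizontal, bars ± SD over 4 arrays) for imprinted genes, other long noncoding RNAs and small nucleolar RNA host genes (vertical) that were well measured. Snrpn and Ndn had the lowest means, at -1.29 and -0.93, with wide bars, while Norad at -0.65 and Dancr at 0.53 had narrow ones.

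The mRNAs for proteins of the nuclear bodies that Neat1 and Malat1 help to organise were all well measured. The proteins themselves were not measured. Of 14 genes for paraspeckle proteins 6 were lower and 8 higher, with a median of 0.02. At an unadjusted p under 0.05, 3 were higher, and 0 passed after adjustment in limma's test. Rbm14, Tardbp and Nudt21 were higher on 4 of 4 arrays with means of 0.39, 0.37 and 0.29. The first of these is needed for paraspeckle assembly, Tardbp encodes an RNA-binding protein, and Nudt21 encodes a subunit of the cleavage factor that sets the choice of the Neat1 polyadenylation site.

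Of 12 genes for nuclear speckle proteins 7 were lower and 5 higher, with a median of -0.04. At an unadjusted p under 0.05, 2 were higher and 1 was lower, with 0 after adjustment in limma's test. The splicing factors Srsf2 and Srsf7 were higher on 4 of 4 arrays, with means of 0.43 and 0.41, and U2af2, which recognises the polypyrimidine tract, was lower on 4 of 4 arrays with a mean of -0.38. Pnn, which encodes a speckle protein linked to cell adhesion, had a mean of 0.23 and was higher on 3. None of the 26 genes for paraspeckle and nuclear speckle proteins had the order of signs of Mirg.

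All genes that the RefSeq table annotates as long noncoding were also counted, a list added after seeing the data. Of these, 575 were tested, and 40.7% were well measured, against 79.5% of all genes tested. Their median ratio was 0.03, close to the 0.04 of all genes. An unadjusted p under 0.05 was reached by 10.4% as lower, against 7.5% of all genes, and by 13.7% as higher, against 9.19%. A mean past 2-fold was reached by 4.35% as lower, against 4.06%, and by 3.48% as higher, against 2.15%. The low signal of many of these RNAs limits what the array can show. Among the 234 long noncoding RNAs that were well measured, 13 were lower and 15 higher at an unadjusted p under 0.05, against 838 and 950 of the 14281 well-measured genes of all kinds. Past 2-fold, 5 of the 234 were lower and 1 was higher, against 394 (2.76%) and 113 of the 14281. Mirg, Neat1 and Malat1 belonged to these 234 RNAs, and their means lay inside 2-fold of equality.

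Over all probes, the log ratios of the arrays correlated with Pearson's r between -0.22, for arrays 1 and 4, and 0.61, for arrays 1 and 2. Probes are not independent replicates, and no p is given. The SD of the log2 ratios was 0.97 on array 1 and 0.63 to 0.69 on the others. Between 65.4% and 68.9% of the probes were well above background in Cy5 and between 59.2% and 68.0% in Cy3.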

How the data were processed

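Total RNA of dissected mouse middle ears was labelled and hybridised to 4 two-colour 4x44K arrays. The authors read the spots with Agilent Feature Extraction, version 10.10.1.1, and deposited its output for each array. The deposited intensity values are spot signals, background-subtracted and dye-normalized in the processed columns, and the deposited ratio of Cy5 to Cy3 is a log10 value. Other deposited columns are 0 or 1 flags of the authors' software for background, saturation and outliers. A deposited table of log10 ratios held the same values, rounded, and served as an alternative. The authors' test was not given in the sources used here.

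The ratios were put on the log2 scale. Control spots, spots with an outlier flag (164 to 274 of 43020 per array) and those lacking a ratio were dropped, and probes with fewer than 3 ratios were not tested. The accession of each probe was looked up in the RefSeq table of GRCm38.p6, used for names, gene order and microRNA sequences; the array files name build mm9, and no coordinates were taken from them. Of several probes for a gene the brightest stood for it. An intercept was fitted over all 31577 probes with lmFit and eBayes in limma 3.58.1 (R 4.3.3; prior degrees of freedom 1.98), two-sided, and p-values were adjusted over these probes by the Benjamini-Hochberg method. The fit was tested on simulated data. Figures were drawn with matplotlib 3.10.9, and tables were made with pandas 2.3.3 in Python 3.11.15. The number of arrays and signal over background limit the precision.

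The members and lists were chosen with earlier results of these data known. All members were named, and from each list at most 4 genes with the smallest unadjusted p among those measured in both channels on all arrays, or, for cell type markers, 2 with the highest signal. The result of 1 listed gene is not reported here. The genes of the domain and its neighbours, and the quantile normalization (limma's Aquantile) of signals between arrays, were added after seeing the data. Likeness was measured to Mirg and Neat1, in place of Meg3, and to Malat1. The alternatives were normexp correction (offset 50) of median signals with loess or median centring, the deposited ratio table, filters on dim probes, flagged spots kept, other variance models, the mean of a gene's probes, the mean over members, and leaving out each array in turn.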

Additional observations from a re-analysis of the deposited data

Results flagged for a closer look

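Of 80 values tested for an array that lay far from the other 3, 5 stood out by the gap of 1 array over the range of the 4 (Dixon's rule at the 95% level). Chance gives about 1 in 20. The log2 ratio of Dlk1 stood out with array 3, at -1.55 against 1.00 to 1.31 on the others, a gap of 0.892 of its range. For S100b, an astrocyte and Schwann cell gene, array 1 lay at -1.45 against 0.04 to 0.28, a gap of 0.862. Array 1 also stood apart for Prx, a myelin gene of peripheral nerve, with a gap of 0.868, and for the globin gene Hbb-bt, with 0.872. Array 2 did so for the epithelial secretory gene Bpifa1, with 0.844. Mirg, with array 4 apart at 0.804 of its range, Malat1 at 0.558 and Neat1 at 0.152 did not pass the rule's limit.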

How the results depend on the processing

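Mirg kept a negative mean under all 12 alternatives, between -1.003 and -0.28, with adjusted p between 0.168 and 0.731. Its difference from Neat1 and Malat1 stayed negative under the same number, between -1.13 and -0.20, and the neuron list in place of Mirg gave -1.21. With normexp correction and median centring, the median of all genes moved from 0.04 to 0.19 on the log2 scale; Neat1 then had 0.41, so that 1 member was lower instead of 2. Under the same setting the list medians were -0.035 for the coding genes of the Dlk1-Dio3 domain (0.51 before, over 3 genes that include Dio3), 0.013 for imprinted genes (-0.11), 0.28 for small nucleolar RNA hosts (-0.0024), 0.37 for paraspeckle proteins (0.02) and 0.35 for nuclear speckle proteins (-0.04), and 2225 genes had an adjusted p under 0.05 in limma's test, 2124 of them higher. With the mean of a gene's probes the last 3 medians were 0.071, -0.012 and 0.027, and with loess that of paraspeckle proteins was -0.015. The median of the domain's coding genes was 0.14 with loess, 0.39 with the mean of a gene's probes and 0.0010 over well-measured genes. With 1 array left out, the range was 0.24 to 1.20 for the coding genes of the domain, -0.28 to 0.059 for Neat1, -0.0096 to 0.46 for Malat1, -0.15 to 0.26 for the median of both, -0.024 to 0.11 for small nucleolar RNA hosts, -0.013 to 0.060 for paraspeckle proteins and -0.068 to 0.015 for nuclear speckle proteins. The number of members lower ranged from 1 to 3, and that with an unadjusted p under 0.05 from 0 to 1, the latter being Mirg without replicate 4. Where a value changed, the cause was not tested. Past 2-fold, 730 genes were lower and 386 higher, against 319 and 71 with loess, 183 and 300 with median centring, and 394 and 113 where both channels had to be well above background. No paired analysis was possible because the ratios already compare both extracts of an array within it, and no further pairing is labelled. Adding H19 to the widespread transcripts was not run, as no probe was matched to it. Signal over background limits what can be measured of dim noncoding RNAs.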
